A study of Rattus norvegicus with 4 samples.

Results

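Hspa1a and Rpn2 are 2 genes of protein quality control that were spotted repeatedly on the arrays of this series. They were chosen by gene symbol in the platform annotation, which paired each symbol with 16 wells of the printing plates. Together they held 32 of the 28800 wells and were 2 of the 10 genes that the annotation named. Every array carried RNA of 1 obese rat in one dye and of 1 lean rat in the other. All rats were untreated SHHF males of 10 months, a hypertensive strain prone to heart failure, and the labels give the right atrium as the tissue. For the obese rats the labels list hypertension, a metabolic syndrome and dilated cardiomyopathy starting at 10 months. For the lean rats they list hypertension and dilated cardiomyopathy starting at 14 months. The recessive corpulent allele (cp) of the leptin receptor gene underlies the difference in body type. Lean rats may be +/+ or cp/+, and which of these each lean rat was is not given in the sources used here. Obese rats 5 and 4, labelled with Cy5, were paired with lean rats 3 and 4. Obese rats 3 and 1, labelled with Cy3, were paired with lean rats 4 and 5. Lean rat 4 thus served as partner on 2 arrays, and 3 lean rats are named in the titles although the design text counts 4. The extraction protocol speaks of the left ventricle. None of 21 marker genes listed for 7 cell types of the heart was named on the arrays, so the labelled tissue could not be checked against its markers.

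Hspa1a encodes the inducible form of HSP70, a cytosolic chaperone that uses ATP to bind and release exposed hydrophobic stretches of unfolded proteins, with the help of HSP40 partners. Its transcription is driven by heat shock factor 1, and in the heart it is induced by heat, ischaemia and other stress. Rpn2 encodes ribophorin II, a subunit of the oligosaccharyltransferase. This membrane complex of the endoplasmic reticulum transfers a preassembled sugar chain to asparagines of proteins entering the secretory pathway, which then fold with the help of lectin chaperones. One gene therefore stands for folding in the cytosol and the other for glycosylation in the endoplasmic reticulum. Of the lists drawn up for these pathways, Hspa1a was the 1 named gene of 14 in the HSP70 family and Rpn2 the 1 of 12 in the oligosaccharyltransferase list. Of 17 genes for HSP70 partners and the heat shock response and of 14 for glycoprotein folding in the endoplasmic reticulum, 0 were named on these arrays.

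In RefSeq's GRCr8 annotation of the rat genome, Hspa1a (NCBI gene 24472) lies on chromosome 20 from 3859756 to 3863800. The transcript given by the platform annotation is the 1 transcript of that gene. Hspa1b, a near-identical second copy of the inducible HSP70 gene, begins 11611 bases further on and ends at 3877866, and the testis-type gene Hspa1l overlaps the start of Hspa1a. The array probe sequences were not used here. Whether the Hspa1a probes also bind transcripts of Hspa1b was therefore not tested, and the values given for Hspa1a may belong to both copies. Rpn2 (NCBI gene 64701) lies on chromosome 3 from 166361955 to 166409272 with 3 annotated transcripts, and it was matched by symbol. Which exon or untranslated region each probe covers is not given in the sources used here.

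The deposited values are log10 ratios of both channels, each array centred on its mean, and they are given here as log2 ratios. A value of 0 means that the gene was at the array's mean ratio, not that its level was the same in both rats. Of 28800 wells, 28730 to 28798 had a value on an array, and the standard deviation (SD) over all wells was 0.42 to 0.58. All 32 wells of Hspa1a and Rpn2 had a value on all 4 arrays, which makes 128 values. Intensities were not used here, so the signal over background is unknown, and precision is limited by having 4 arrays. In whole atrial tissue, fewer cells of a type and less RNA per cell cannot be told apart.

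Hspa1a was close to the array mean on every array. On the array of obese rat 5 its 16 wells ran from -0.38 to 0.21 with a mean of -0.11 and an SD of 0.15. On that of obese rat 4 they ran from -0.44 to 0.093, with a mean of -0.065 and an SD of 0.13. The means were thus below 0 on both arrays with obese RNA in Cy5. With obese RNA in Cy3, the wells on the array of obese rat 3 ran from -0.16 to 0.28 around a mean of 0.012 (SD 0.12). Those on the array of obese rat 1 ran from -0.19 to 0.26 around a mean of 0.035 (SD 0.14). The ranges of the wells overlapped between all 4 arrays, and each array had wells on both sides of 0.

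Rpn2 was near 0 on 2 arrays and away from it on the others. On the array of obese rat 5 its wells ran from -0.49 to 0.24, with a mean of -0.011 and an SD of 0.18, and on that of obese rat 1 from -0.16 to 0.39, with a mean of -0.013 and an SD of 0.14. On the array of obese rat 4 the mean was -0.20 (SD 0.055) and 16 of 16 wells were below 0, from -0.33 to -0.098. On the array of obese rat 3 the mean was 0.15 (SD 0.077) and 16 of 16 wells were above 0, from 0.038 to 0.27. Those 2 arrays share lean rat 4 in opposite dyes, and their wells did not overlap. Unnamed wells printed in the same plate positions, described further on, had medians of 0.15 with obese rat 3 and -0.071 with obese rat 4, so that Rpn2 was at their level on the first array and below it on the second. With Cy5 as the numerator, both shifts put the ratio of obese rat to lean rat 4 below the array's mean ratio. With obese RNA as the numerator, that ratio was below the array's mean for obese rat 4 and above it for obese rat 3. The wells of 1 array share a hybridisation, so their agreement reflects measurement within that array, including plate position, and not differences between rats.

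**Figure D1:**
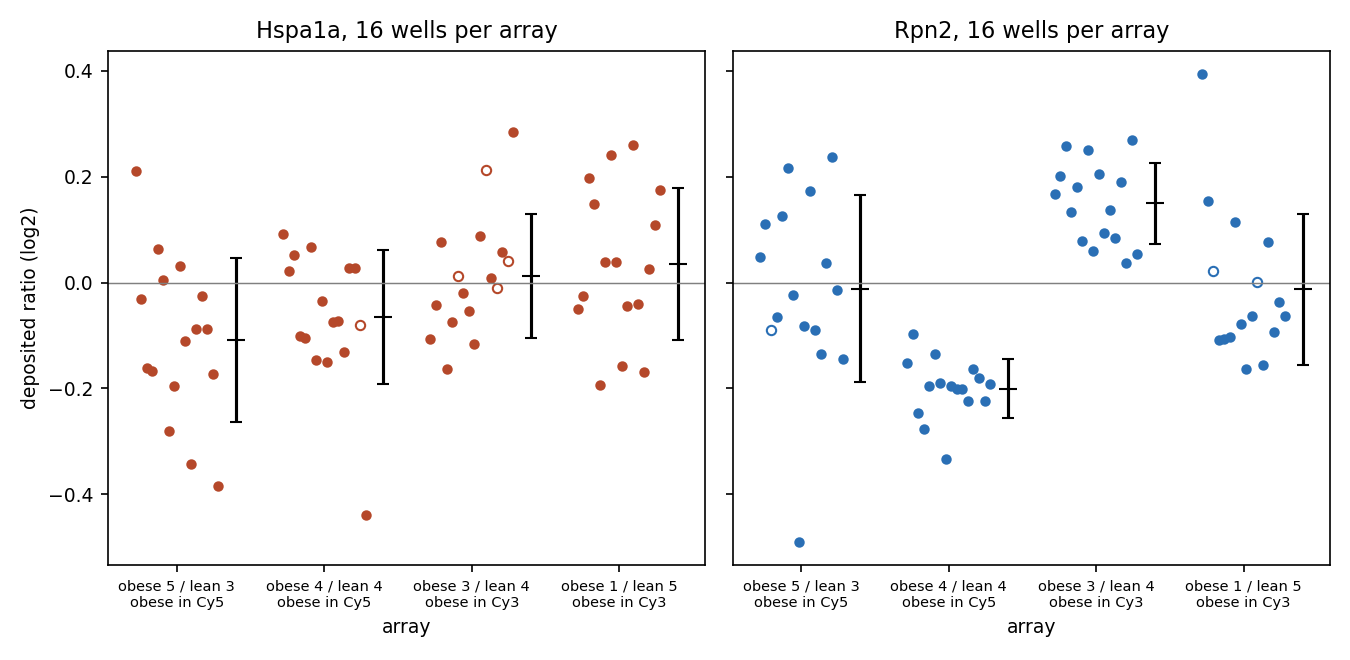
Deposited log2 ratios of the 16 wells of Hspa1a (left) and Rpn2 (right) on each of the 4 arrays, with open points for values repeated in at least 5 wells of the array and black bars for the mean and SD over wells. Hspa1a straddles 0 on every array, while Rpn2 lies wholly below 0 on the array of obese rat 4 and wholly above 0 on that of obese rat 3.

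With all wells counted, Hspa1a and Rpn2 were the least scattered of the named genes, with Ldha as an exception on 2 arrays. Of the 64 values of Hspa1a and the 64 of Rpn2, 0 lay beyond 0.5 on either side of 0, against 5 to 34 values of each of the other 8 genes. The SD over 16 wells was 0.055 to 0.18 for Rpn2 and 0.12 to 0.15 for Hspa1a. On the arrays of obese rats 5 and 3, 8 of 8 other genes had a larger SD than both, and on the other 2 arrays 7 of 8 did. Ldha, which encodes a lactate dehydrogenase subunit, had an SD of 0.10 with obese rat 4 and 0.089 with obese rat 1. Across arrays, the median SD of the other 8 genes was 0.66 to 1.11.

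This order depended on wells with repeated values. A value was counted as repeated if at least 5 wells of the array held it. Hspa1a had such a value in 4 of its 16 wells and Rpn2 in 2. In Hspa1a they lay between -0.081 and 0.21 and in Rpn2 between -0.090 and 0.021, inside the range of the remaining wells. Without such wells, 12 of Hspa1a and 14 of Rpn2 were left, and their SDs were 0.12 to 0.16 and 0.058 to 0.19. The median SD of the 7 other genes with more than 1 well left was then 0.088 to 0.24. On the array of obese rat 1, 7 of 7 of them had a smaller SD than both Hspa1a and Rpn2. The smaller scatter of Hspa1a and Rpn2 was therefore seen with repeated values included and not among wells without them.

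**Figure D2:**
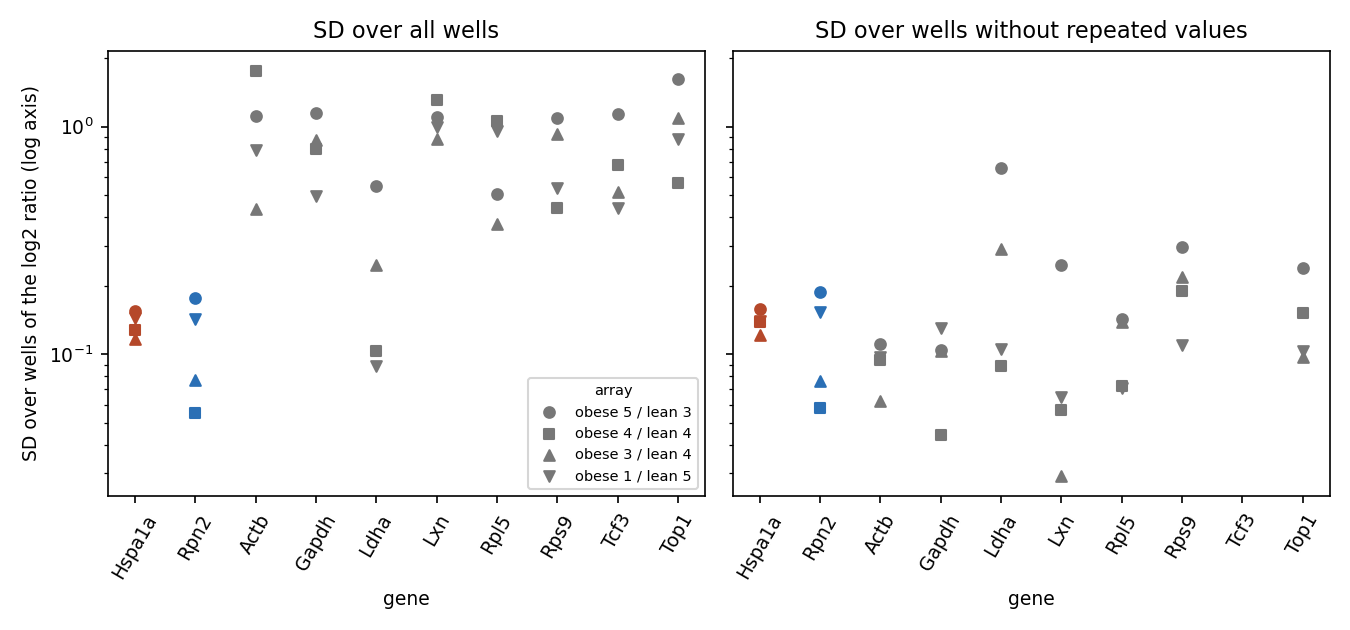
SD over wells of the log2 ratio (log axis) for each named gene on each array, over all 16 wells (left) and over wells without repeated values (right; Tcf3 had 1 well left and no SD). Hspa1a and Rpn2, in colour, are the least scattered with all wells, apart from Ldha on 2 arrays, and lie among or, with obese rat 1, above the other genes once repeated values are left out.

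To ask whether obesity went with a different level of either transcript, the array was taken as the replicate and both readings of the columns were used, because the numerator of the ratio is not stated. For the alternating contrast the values of obese rats 3 and 1 were multiplied by -1 (turned) and then averaged with the rest. With Cy5 as the numerator, this contrast gives obese against lean. The common contrast is the plain mean of the 4 columns, and it gives obese against lean where obese RNA is the numerator throughout. Whichever contrast does not measure obesity measures the dye, and an inverted ratio would change the sign of either.

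Under neither reading could the mean ratio of Hspa1a or Rpn2 be told from 0 with 4 arrays. For Hspa1a the turned values were -0.11, -0.012, -0.065 and -0.035 with obese rats 5, 3, 4 and 1. The alternating mean was -0.055 (SE 0.067, n = 4 arrays, limma adjusted p = 0.617), with the same sign on 4 of 4 arrays. The exact two-sided sign-flip test gave p = 0.125, which is the smallest it can give with 4 arrays. The common mean was -0.032 (SE 0.088, limma adjusted p = 1.00), with 2 arrays on each side of 0. The sign of the alternating mean did not hold under another scaling, since it was 0.041 after the medians of well-position groups were subtracted and 0.023 with arrays centred on the unnamed wells of plate 73, an alternative chosen after seeing the data. Among 28543 unnamed probes, each a single well, 80.1% had an alternating mean farther from 0 than Hspa1a and 77.3% had a common mean farther from 0.

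For Rpn2 the turned values were -0.011, -0.15, -0.20 and 0.013 in the same order. Their mean was -0.087 (SE 0.075, n = 4 arrays, limma adjusted p = 0.481, exact sign-flip p = 0.375), negative on 3 of 4 arrays. The values away from 0 were those of the 2 arrays with lean rat 4. With these averaged into 1 replicate the mean was -0.058 (SE 0.093, adjusted p = 0.736 in limma). The common mean was -0.019 (SE 0.099, limma adjusted p = 1.00), and the exact sign-flip test gave p = 0.625. The common mean turned to 0.042 (SE 0.12, limma adjusted p = 1.00) without the array of obese rat 4. Of the unnamed probes, 69.0% had a larger alternating mean in size than Rpn2 and 86.5% a larger common mean. In the same fits, 2.1% of 28553 rows (gene means and unnamed probes) passed the adjusted threshold of 0.05 in the alternating contrast and 0% in the common one. Neither Hspa1a nor Rpn2 passed in either contrast, and their lowest unadjusted p was 0.293 (limma, Rpn2, alternating).

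The intervals bound how large a difference these arrays allow. For Hspa1a the 95% interval of the alternating mean ran from -0.22 to 0.11, or 0.858-fold to 1.08-fold, and that of the common mean from -0.25 to 0.19, or 0.840-fold to 1.14-fold. For Rpn2 the intervals were -0.27 to 0.099 (0.828-fold to 1.07-fold) and -0.27 to 0.23 (0.831-fold to 1.17-fold). The end farthest from 0 corresponds to 1.17-fold (alternating) and 1.19-fold (common) for Hspa1a, in either direction, and to 1.21-fold and 1.20-fold for Rpn2. Differences beyond these sizes, relative to the mean of all wells, lay outside the interval under the reading named. Differences inside the interval, including none, were not excluded by these 4 arrays. These intervals take the 4 arrays as independent, although 2 share lean rat 4. Their width also draws on the spread of the unnamed probes, each a single well. Over all 16 alternatives for each gene and contrast the interval ends stayed within 1.29-fold.

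**Figure D3:**
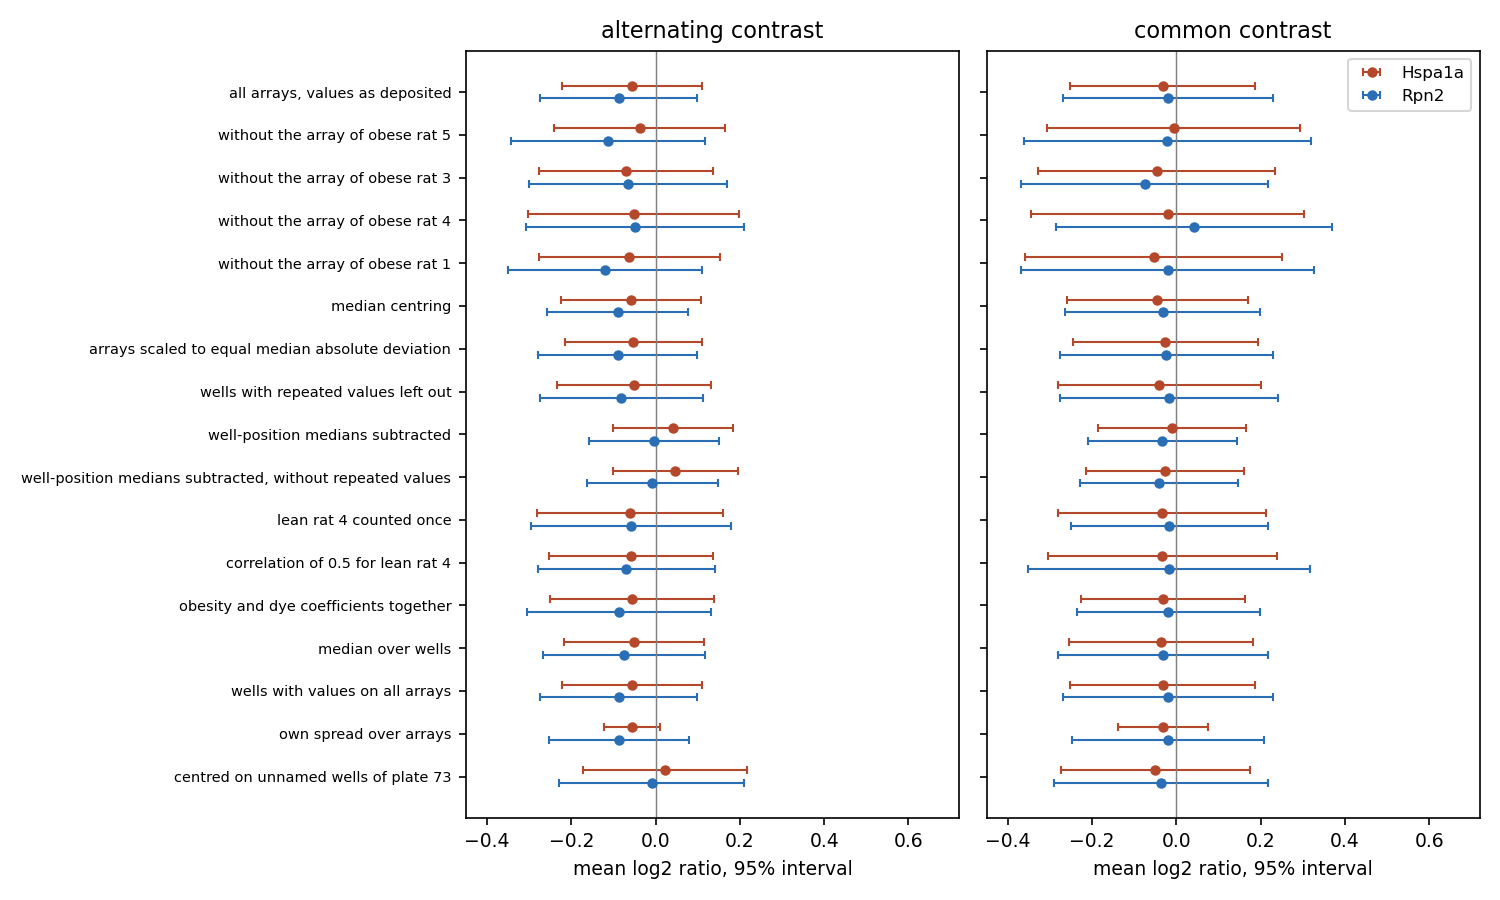
Mean log2 ratio and 95% interval of Hspa1a and Rpn2 in the alternating (left) and common (right) contrast, with all arrays as deposited in the top row and each alternative below. Every interval includes 0, and the ends stay between -0.37 and 0.37.

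The limma fit moderates SEs towards the spread of all its rows, nearly all of them unnamed single wells. The moderated SEs were larger than those from each gene's own spread over arrays. In the alternating contrast they were 0.067 against 0.021 for Hspa1a and 0.075 against 0.052 for Rpn2. In the common contrast they were 0.088 against 0.033 and 0.099 against 0.072. The turned means of Hspa1a had an SD of 0.042 over arrays. The standard error of a mean over 16 wells was 0.029 to 0.039, and the SD over arrays was 1.22 times the root mean square of these errors. For Rpn2 the SD over arrays was 0.10 after turning, against a well error of 0.014 to 0.044, or 3.39 times as large. These errors take the wells as independent, although plate position, described further on, went with much of their spread on some arrays. The ratios therefore do not set array spread against reading error alone. With each gene's own spread alone, the alternating interval narrowed to -0.12 to 0.011 for Hspa1a and to -0.25 to 0.079 for Rpn2. Both still included 0. In the limma fit of the alternating contrast, the SE of the other 8 named genes was 0.096 to 0.11, above that of Hspa1a and of Rpn2. Wells with repeated values, on which the order of scatter over wells depended, are included in these SEs. In the common contrast Top1 had an SE of 0.0989, below the 0.0995 of Rpn2.

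Set against each other on the same array, which no centring of the arrays can change, Rpn2 minus Hspa1a was 0.097, 0.14, -0.13 and -0.048 for obese rats 5, 3, 4 and 1. The mean of this difference was 0.013 as deposited (SE 0.063, n = 4, exact sign-flip p = 0.875) and -0.032 after turning (SE 0.061, exact sign-flip p = 0.75). The sign was mixed in both cases. Both means were smaller in size than their SE. The exact sign-flip test cannot give less than p = 0.125 with 4 arrays, so it could not have detected unequal change of both transcripts in obesity. Among the named genes, Rpn2 was the nearest to Hspa1a over the 4 arrays, with a root-mean-square difference of 0.11 in log2 ratio, followed by the topoisomerase gene Top1 at 0.22. For Rpn2 the nearest were Hspa1a at 0.11 and Ldha at 0.20. Apart from Rpn2 as the nearest to Hspa1a, this order rested on wells with repeated values. In a comparison chosen after seeing the data, without such wells, Rpn2 was 0.11 from Hspa1a, the beta-actin gene Actb was second at 0.15 and Top1 was at 0.60. The nearest to Rpn2 was then Actb at 0.10, followed by Hspa1a at 0.11, with Ldha at 0.24. A small distance can come from values near 0 in both genes, so it does not measure a shared pattern.

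Single wells were then compared with all wells of the table. In the alternating contrast 0 of the 32 wells passed the adjusted threshold (limma), where 2.01% of 28702 tested wells did. That share was unstable, since 3 to 1987 wells passed when 1 array was left out and 9 passed under median centring. At an unadjusted p under 0.05, 2 of 32 wells passed (6.25%), both of Hspa1a and both negative (73P04 and 73L03), against 27.9% of all wells. Well 73L03 held a repeated value on 1 array. One sign on all 4 arrays after turning was seen in 7 of 32 wells (21.9%), 4 of Hspa1a and 3 of Rpn2, against 37.4% of all wells. In the common contrast 0 of 32 wells passed the adjusted threshold, as did 0% of all wells. At an unadjusted p under 0.05, 0 of 32 passed, against 0.951% of all wells, and 1 of 32 (3.12%) had one sign on all arrays, against 5.92%. Wells of 1 gene share their target, so these counts describe 2 genes.

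The lowest well of Hspa1a was 73P04 (plate 73, row P, column 4), with turned values of -0.38, -0.28, -0.44 and -0.17 for obese rats 5, 3, 4 and 1. Its mean was -0.32 (SE 0.078, limma adjusted p = 0.0774). It passed the threshold in 1 of 14 alternatives, with wells holding repeated values left out (limma adjusted p = 0.0438). In that fit 2326 of 18100 wells passed (12.9%), against 1 of the 26 remaining wells of Hspa1a and Rpn2 (3.85%). The highest well was 73C03, at 0.21, 0.11, 0.093 and 0.050 in the same order, with a mean of 0.12 (SE 0.070, limma adjusted p = 0.327). Both wells target one gene, and they had opposite signs on each of the 4 arrays after turning. For Rpn2 the lowest and highest wells were 73H08, with a mean of -0.20 (SE 0.11, limma adjusted p = 0.296), and 73O08, with a mean of 0.028 (SE 0.092, limma adjusted p = 0.862). Well 73H08 ran from -0.49 with obese rat 5 to 0.077 with obese rat 1 after turning.

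After turning, the differences between wells of Hspa1a recurred from array to array. Across its 16 wells the turned values of 2 arrays correlated with Pearson's r of 0.23 to 0.79 (median 0.55), positive in 6 of 6 pairs of arrays. For Rpn2 r ran from -0.43 to 0.75 (median -0.095), positive in 2 of 6 pairs. As deposited, r keeps its size but changes sign between arrays with obese RNA in opposite dyes. For Hspa1a these pairs had r of 0.67 (obese rats 5 and 3), 0.79 (5 and 1), 0.43 (3 and 4) and 0.23 (4 and 1) after turning. Only the same-dye pairs of Hspa1a, at 0.59 (5 and 4) and 0.50 (3 and 1), are thus positive as deposited. The points of each correlation share their array and their place on the plate, and 1 pair of arrays shares lean rat 4. Wells of both genes fell into 4 position groups of 4 wells each, if wells 4 rows or 12 columns apart are taken as one group. These groups accounted for 24.6% to 80.6% of the variance between wells of Hspa1a on an array and for 17.6% to 68.9% of that of Rpn2. With 4 groups of 4 wells, 20% is the average share where groups do not differ, so the lowest shares, 24.6% for Hspa1a with obese rat 3 and 17.6% for Rpn2 with obese rat 1, were close to it. With group means removed, r for Hspa1a after turning was 0.12 to 0.70 and again positive in 6 of 6 pairs.

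Unnamed wells in the same position groups showed how much of the mean ratio was general to those positions. In the 4 groups of Hspa1a the median of 2368 unnamed wells after turning was -0.094, -0.11, -0.15 and -0.041 with obese rats 5, 3, 4 and 1. It averaged -0.098, against -0.055 for Hspa1a itself. In the groups of Rpn2 the median of 2384 unnamed wells was -0.069, -0.15, -0.071 and -0.046 in the same order. It averaged -0.084, against -0.087 for Rpn2. With the medians of all 48 position groups subtracted, the alternating mean was 0.041 for Hspa1a (SE 0.057, n = 4, limma adjusted p = 0.712) and -0.0047 for Rpn2 (SE 0.061, adjusted p = 0.972 in limma). The common means were -0.0100 (SE 0.069) and -0.034 (SE 0.070), each with a limma adjusted p of 1.00. The turned mean of Rpn2 minus the unnamed median was 0.058, -0.00036, -0.13 and 0.059 with obese rats 5, 3, 4 and 1, so an average of -0.0032 came from arrays of opposite sign. For Hspa1a it was -0.014, 0.097, 0.082 and 0.0065, with an average of 0.043. With medians in place of the gene means the averages were 0.0086 for Rpn2 and 0.047 for Hspa1a.

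**Figure D4:**
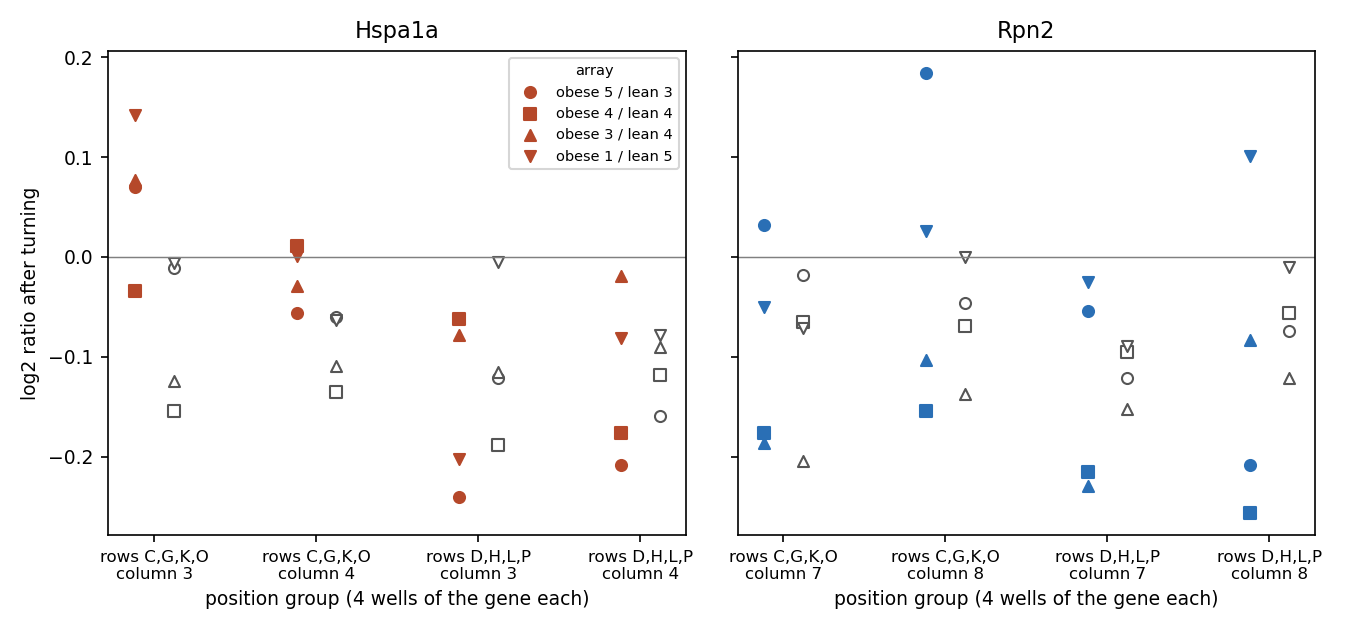
Log2 ratio after turning in the 4 position groups of Hspa1a (left) and Rpn2 (right), with 1 symbol per array; filled symbols are means of the gene's 4 wells and open symbols are medians of the unnamed wells of the group. The gene means of Hspa1a are lower in rows D, H, L and P than in rows C, G, K and O on average, and the open symbols lie below 0 in every group.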

How the data were processed

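Right atrial RNA of 4 obese and 3 named lean rats was hybridised to 4 two-colour oligonucleotide arrays, per the labels. The authors deposited 1 log10 ratio per probe and array. The scale follows from repeated values that lie log10 of small whole-number ratios apart, and each column had a mean of 0. The sources used here give no scanner, background correction, normalization or numerator. Values were multiplied by log2 of 10. Wells of a gene were averaged, and the mean over arrays was tested against 0 with limma 3.58.1 (lmFit, eBayes, R 4.3.3) together with all unnamed probes that had 4 values. Benjamini-Hochberg adjustment ran over all rows. Exact sign-flip tests over arrays are two-sided. The array is the replicate, and sign-flip p-values reflect differences among 4 hybridised pairs, of which 2 share lean rat 4. The SEs, intervals and p-values of limma also borrow variance from the unnamed probes, each a single well. The scripts were tested on simulated data. Of 28800 probes, 160 had 1 gene symbol, 0 had several and 28640 are unnamed here. Symbols were updated through RefSeq synonyms. The members, lists, tests and alternatives were chosen with earlier results of these data known. Hspa1a and Rpn2 were named throughout. Of their wells, the highest and lowest by alternating mean were named, and of the other genes the 2 nearest to each.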

Additional observations from a re-analysis of the deposited data

How the results depend on the processing

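Each gene and contrast was recomputed under 16 alternatives, of which centring on the 224 unnamed wells of plate 73 was chosen after seeing the data. No alternative fitted with limma moved Hspa1a or Rpn2 past the threshold, with limma adjusted p from 0.405 to 1.00. With each gene's own spread alone, the exact sign-flip test gave p from 0.125 to 0.625. The smallest p of that test over 4 arrays is 0.125, so it could not pass. The alternating mean of Hspa1a turned to 0.041 with well-position medians subtracted, to 0.047 with repeated values left out as well and to 0.023 with plate 73 centring, so its sign rests on the reference level. In the other 13 it kept its sign. The common mean of Rpn2 turned to 0.042 without the array of obese rat 4 and kept its sign in the other 15. The alternating mean of Rpn2 and the common mean of Hspa1a kept theirs in 16 of 16. Some alternatives cannot change a mean. It is the same by construction with each gene's own spread and with obesity and dye fitted together. It is also the same with only wells that have values on all arrays, since all wells of both genes have them. The kept signs under these alternatives were therefore fixed in advance. Leaving out 1 array gave -0.070 to -0.037 (Hspa1a, alternating), -0.054 to -0.0061 (Hspa1a, common), -0.12 to -0.050 (Rpn2, alternating) and -0.075 to 0.042 (Rpn2, common), and 0 called wells in both contrasts each time. The count of called wells was 0 in 13 of 14 alternatives for the alternating contrast and 1 without repeated values (73P04), and 0 in 14 of 14 for the common contrast. Over all wells the alternating count ran from 3 (without the array of obese rat 4) to 2326 of 18100 (without repeated values), against 578 of 28702 as deposited, and the common count was 0 throughout. Each ratio already compares an obese with a lean rat on the same array, so testing the mean ratio against 0 uses the pairing. The samples form 1 group, with no second group to block against.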

Other observations

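Wells of Hspa1a in rows D, H, L and P had lower turned log2 ratios than its wells in rows C, G, K and O, a contrast noticed after the values were seen and therefore given without a test. The difference between the means of both row sets (8 wells each) was -0.23, -0.073, -0.11 and -0.21 for obese rats 5, 3, 4 and 1, with a mean of -0.16 (SD 0.078, n = 4 arrays). Of the 8 wells of rows D, H, L and P, 7, 2, 1 and 7 lay below all 8 wells of the other rows on these arrays in that order. For Rpn2 the same difference was -0.24, -0.011, -0.071 and 0.050 in that order, with a mean of -0.068 (SD 0.12). Among the other 8 named genes the mean difference was negative in 4: Actb at -0.38, Lxn at -0.33, Top1 at -0.30 and Gapdh at -0.17. In the rest it was positive, at 0.26 for Rpl5, 0.23 for Rps9, 0.11 for Ldha and 0.00056 for Tcf3. Taken between medians of the row sets, the average over arrays was negative in 10 of 10 named genes. It was -0.14 for Hspa1a, -0.22 for Tcf3, -0.17 for Top1 and -0.11 for Rps9, although 15 of the 16 wells of Tcf3 held repeated values. The direction between medians was thus not particular to Hspa1a, while that between means differed among the genes. Between means, unnamed wells of the well columns that hold Hspa1a differed by -0.034 on average between these rows (SD 0.065). That average came mostly from the array of obese rat 5, at -0.13, with 0.00036, -0.0091 and 0.0029 for obese rats 3, 4 and 1. Those of the columns that hold Rpn2 differed by -0.023 (SD 0.032), with -0.067, 0.0080, -0.013 and -0.022 for obese rats 5, 3, 4 and 1. Between medians the averages were -0.026 and -0.014. The 32 wells of both genes stand on plate 73, whose 224 unnamed wells had medians of -0.13, 0.13, 0.011 and 0.060 as deposited on the arrays of obese rats 5, 3, 4 and 1.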
